A study of Homo sapiens with 8 samples.

Results

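The unfolded protein response of the endoplasmic reticulum was followed as 36 genes in LNCaP and 22Rv1 prostate cancer cells. The members were chosen by gene symbol as the sensors, transcription factors and targets of the response. The rule itself uses no measured value, though it was set with earlier results of these data known. Of the 36 members, 35 had at least 1 Affymetrix U133 Plus 2.0 probe set annotated to that gene alone, among 19775 such genes on the array. Each was represented by the probe set with the highest mean signal. SYVN1, a ubiquitin ligase of the degradation pathway, shared its probe set with a microRNA gene and was not analysed here. Every value below is the log2 signal of a probe set, or a difference between such signals, and signals are compared between arrays and not between genes.

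LNCaP and 22Rv1 are established lines of human prostate carcinoma. Plates of each line were left untreated, or kept for 4 h in 10 mM caffeine, which the study used to inhibit nonsense-mediated mRNA decay, the pathway that destroys transcripts with premature stop codons. Other plates received the same 4 h of caffeine and then a further 4 h of actinomycin D, an inhibitor of transcription, at 2 µg/ml, either together with 10 mM caffeine or alone. Each of the 8 combinations of line and treatment was measured on 1 array. A single line therefore has no replicate. The p-values given below rest on how far the lines disagreed in their differences between treatments. A constant difference between the lines does not enter this error.

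When unfolded proteins build up in the endoplasmic reticulum, 3 membrane sensors respond. ERN1, also called IRE1 alpha, splices the mRNA of XBP1 to give an active transcription factor. ATF6 is cut in the Golgi and its released part enters the nucleus, and EIF2AK3, also called PERK, phosphorylates the translation factor eIF2 alpha. The transcription factors then raise the genes of chaperones, of enzymes that form disulfide bonds and of the machinery that pulls misfolded proteins out for degradation. Secretory cells such as luminal prostate cells carry a large load of proteins through this compartment. Splicing of XBP1 mRNA and phosphorylation were not measured here.

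All 35 measured members had a mean signal of at least 4 over the 8 arrays, the floor used for detection. WFS1 was the exception on single arrays, with signals of 3.80 and 3.39 on 2 arrays of 22Rv1. All arrays shared the same quartiles after the authors' quantile normalization. Each actinomycin D array had higher signals for all 24 probe sets of the poly-A controls, RNAs that are spiked in before labelling, than the caffeine array of its line, by a mean of 0.77 to 1.53. The mean of the 18S rRNA probe sets was 11.7 on the LNCaP array of actinomycin D with caffeine, against 4.09 to 7.08 on the other 7 arrays. The luminal prostate markers KLK3, KLK2, TMPRSS2, HOXB13, KRT8 and KRT18 had signals of at least 6.64 on every array. Among markers of other cell types, the leukocyte and endothelial genes measured were below 3, and so was the fibroblast gene COL3A1. The other fibroblast genes were above the floor in places, with COL1A1 at 5.29 to 8.50 in LNCaP and 5.86 to 8.65 in 22Rv1, LUM at 2.27 to 2.46 and 9.42 to 10.2, and DCN at 2.27 to 4.19 and 5.56 to 7.06.

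The response acts through a DNA element, the endoplasmic reticulum stress element. Of the 32 members with a promoter sequence, 10 hold an exact match to a form of it. Among these, 4 are shown, with transcripts that differed in the direction of their caffeine response. XBP1 and HERPUD1 had higher signals with caffeine in both lines, and HSPA5 and SDF2L1 had lower ones. The sequences are RefSeq's, on the GRCh38.p14 assembly, 5′ to 3′ along each gene's strand, and give the 200 bases just before the start site. They lie at chr22:28800570-28800769 on the minus strand for XBP1, chr16:56931942-56932141 on the plus strand for HERPUD1, chr9:125241344-125241543 on the minus strand for HSPA5 and chr22:21642102-21642301 on the plus strand for SDF2L1. Capitals mark the fixed letters of an exact match to the endoplasmic reticulum stress element, which is bound by ATF6 and XBP1 with the CCAAT factor NF-Y. Near matches are left in small letters.
XBP1: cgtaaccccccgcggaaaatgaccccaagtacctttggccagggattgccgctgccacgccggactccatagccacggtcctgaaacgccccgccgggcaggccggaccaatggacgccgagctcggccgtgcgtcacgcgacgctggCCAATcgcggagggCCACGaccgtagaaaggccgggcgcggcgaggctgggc
HERPUD1: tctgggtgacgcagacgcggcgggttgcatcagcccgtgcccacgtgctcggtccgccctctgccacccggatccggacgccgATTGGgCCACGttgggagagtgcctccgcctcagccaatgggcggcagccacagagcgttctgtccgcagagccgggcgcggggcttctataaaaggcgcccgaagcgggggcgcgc
HSPA5: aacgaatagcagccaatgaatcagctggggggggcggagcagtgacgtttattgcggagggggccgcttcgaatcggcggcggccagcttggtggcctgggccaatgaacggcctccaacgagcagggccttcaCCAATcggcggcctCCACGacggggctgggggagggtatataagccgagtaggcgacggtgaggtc
SDF2L1: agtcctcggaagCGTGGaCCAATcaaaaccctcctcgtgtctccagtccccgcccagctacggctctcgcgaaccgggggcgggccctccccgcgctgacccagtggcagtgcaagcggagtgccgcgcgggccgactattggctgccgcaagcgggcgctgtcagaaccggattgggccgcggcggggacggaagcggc

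Motifs were searched by their letters, with N for any base, on both strands in 300 bases around the start site, 250 before and 50 after, in the 32 members with a promoter in the RefSeq table. The element ERSE, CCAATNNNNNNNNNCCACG, was found in 7 of the 32 members, or 21.9%, against 22 of 27305 promoters of all genes, or 0.0806%. Those 7 were CALR, CANX, CRELD2, ERO1B, HSP90B1, HSPA5 and XBP1. The second form, ERSE-II, ATTGG and CCACG with 1 free base between them, was found in HERPUD1, HYOU1 and SDF2L1, or 9.38%, against 0.0549% of all promoters. TGACGTGG, the core of the XBP1 element UPRE, was found in HYOU1 only, against 0.795% of all promoters, and the cyclic AMP element TGACGTCA was found in CREB3L2 only, against 1.98%. The UPRE core and an ERSE-II match of HYOU1 overlap. A match is a description of the sequence, and binding was not measured. Since the members were chosen as genes of the response, their higher share of its elements is no independent finding. Copies that differ from the letters searched were not counted.

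The signals of the members on all arrays are shown by role. Within a line, most members differed by under 1 between treatments. ERN1, ATF6 and EIF2AK3 were among those with wider spacing.

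**Figure D1:**
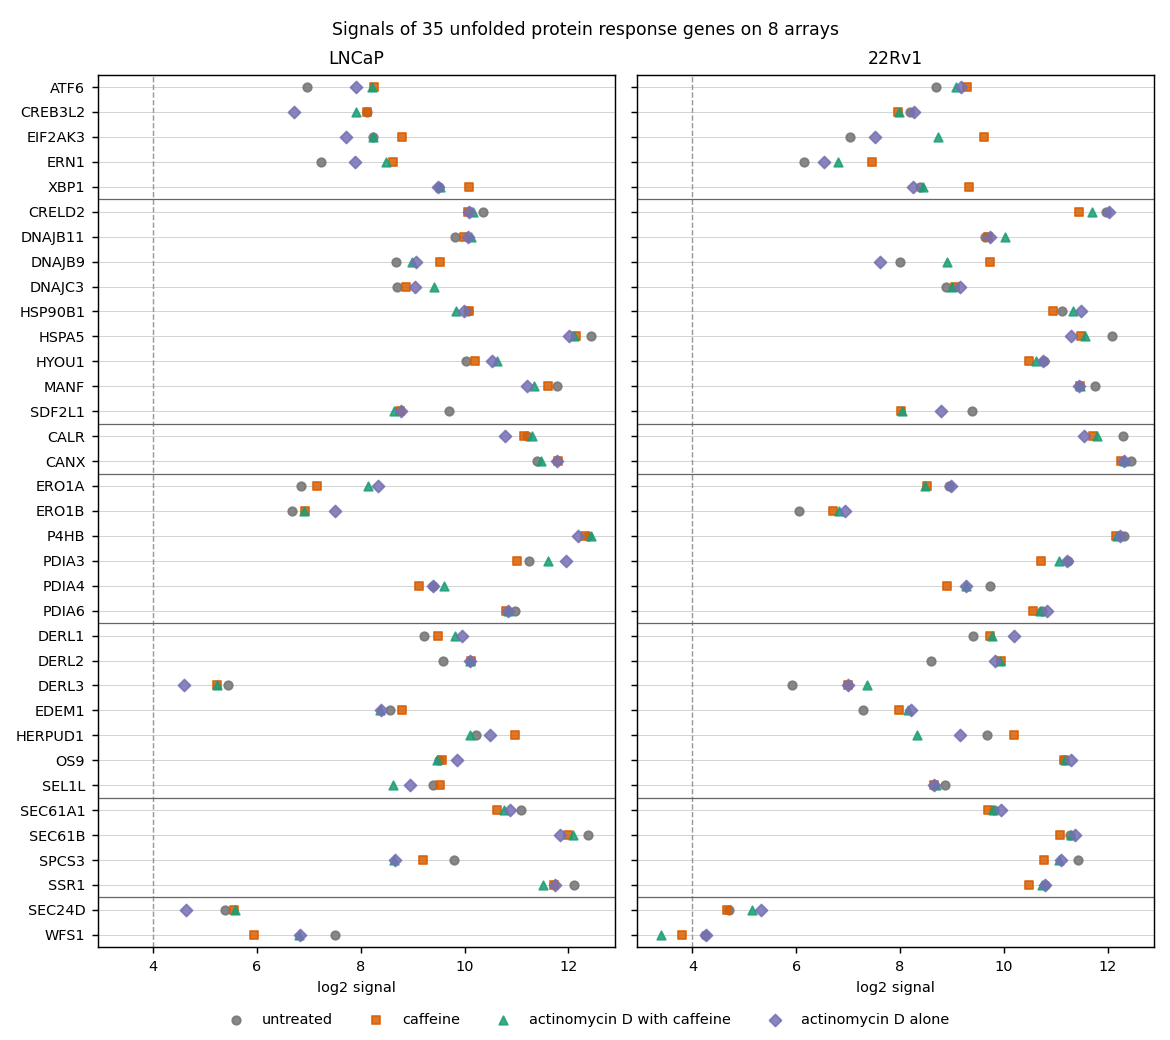
Log2 signal of the 35 members (rows, grouped by role and separated by lines) on the 4 arrays of LNCaP (left) and of 22Rv1 (right), with a dashed line at the detection floor of 4. Each point is 1 array. EIF2AK3 in 22Rv1 spans from 7.04 untreated to 9.62 with caffeine, and WFS1 is the only member with points under the floor.

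After 4 h of caffeine, the sensors ERN1, ATF6 and EIF2AK3, their effector XBP1 and 2 targets, DNAJB9 and DERL2, had higher signals than untreated cells in both lines, whereas the main chaperones and folding enzymes stayed near or below their untreated level. The difference of caffeine from untreated, called accumulation by the study, had a median over the 35 members of 0.06 in LNCaP and -0.17 in 22Rv1, beside -0.02 in each line over all detected genes. It ranged from -1.56 to 1.40 in LNCaP and from -1.36 to 2.58 in 22Rv1. None of the 35 members passed an adjusted p of 0.05 in limma, and 0.0277% of the 10842 genes tested did. At an unadjusted p under 0.05, 6 members (17.1%) were higher against 10.2% of all genes, and 2 (5.71%) were lower against 7.58%. The 6 were ERN1, EIF2AK3, ATF6, XBP1, DNAJB9 and DERL2, and the 2 were SDF2L1 and WFS1. These counts depend on the probe set used. Other tested probe sets of CALR, SPCS3 and SSR1 were lower at that p, and others of CREB3L2, DNAJB9 and ERN1 were higher. In LNCaP, 2 members were higher by at least 1 (5.19% of all genes) and 1 was lower (3.7%). In 22Rv1, 5 were higher by at least 1 (8.41%) and 1 was lower (6.12%).

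**Figure D2:**
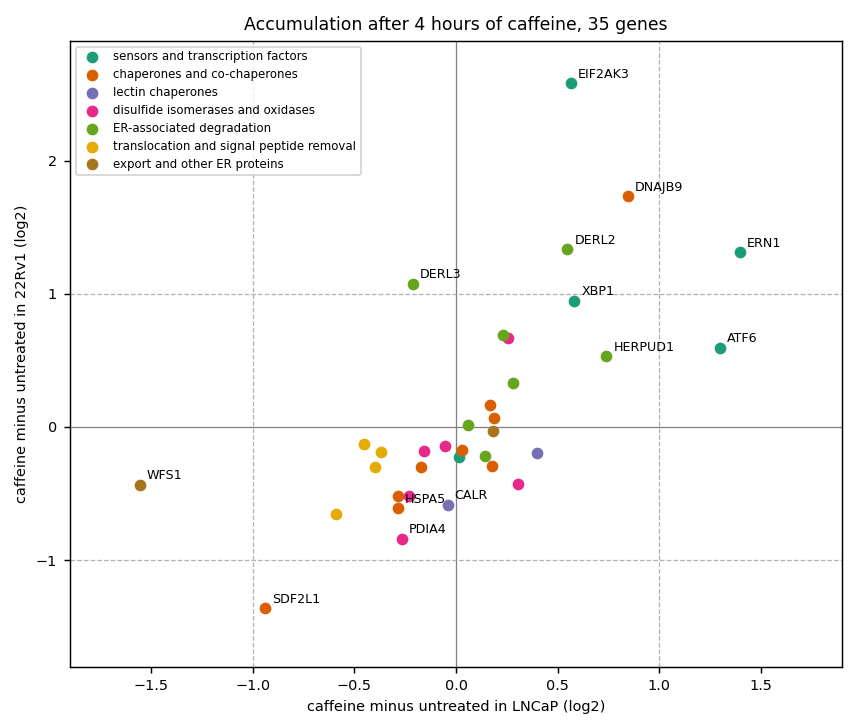
Difference of caffeine from untreated (log2) in LNCaP (horizontal) and in 22Rv1 (vertical) for the 35 members, coloured by role, with dashed lines at 1 and -1. Each point is a gene. ERN1 lies past 1 in both lines at 1.40 and 1.31, EIF2AK3 reaches 2.58 in 22Rv1, and SDF2L1 and WFS1 lie at the lower left.

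Of the 5 sensors and transcription factors, 4 had a positive estimate. Signals are given throughout in the order untreated, caffeine, actinomycin D with caffeine, and actinomycin D alone. ERN1 had signals of 7.22, 8.62, 8.48 and 7.88 in LNCaP and of 6.15, 7.46, 6.81 and 6.54 in 22Rv1. The caffeine array was the highest and the untreated array the lowest in each line. The accumulation of ERN1 was 1.35 (SE 0.23, limma adjusted p = 0.0760), from 1.40 in LNCaP and 1.31 in 22Rv1, and it was the only member past 1 in both lines. It passed the threshold under 2 alternatives, at an adjusted p of 0.0478 where the fit was limited to probe sets averaging 6 or more (1.31% of genes called) and of 0.0483 on the scale of the poly-A controls (1.59, with 0.673% of genes called). Over its 19 alternatives the adjusted p ran from 0.0478 to 1.

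EIF2AK3 had signals of 8.23, 8.79, 8.24 and 7.72 in LNCaP and of 7.04, 9.62, 8.74 and 7.53 in 22Rv1. The caffeine array stood highest in each line, and the gap to untreated was 0.57 in LNCaP and 2.58 in 22Rv1. With the lines this far apart the estimate of 1.57 had an SE of 0.48 (limma adjusted p = 0.192), and the difference between the lines could not be tested with 1 array each.

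ATF6 had signals of 6.96, 8.26, 8.21 and 7.90 in LNCaP and of 8.70, 9.29, 9.08 and 9.17 in 22Rv1. The untreated array was the lowest in each line, and its accumulation was 1.30 in LNCaP and 0.59 in 22Rv1 (0.95, SE 0.26, limma adjusted p = 0.166). The dimmer probe sets of ATF6 gave -0.13 and 0.30 for one and 1.24 and 0.21 for the other.

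XBP1 had signals of 9.51, 10.09, 9.52 and 9.48 in LNCaP and of 8.38, 9.33, 8.44 and 8.24 in 22Rv1. In each line only the caffeine array stood apart, and the other 3 arrays lay within 0.20 of each other. Accumulation was 0.58 and 0.95 (0.76, SE 0.21, limma adjusted p = 0.162). CREB3L2, a membrane-bound transcription factor related to ATF6, gave 0.01 and -0.22 by its brightest probe set. A dimmer one, with a mean signal of 4.47, gave 1.28 and 1.24 (1.26, SE 0.40, limma adjusted p = 0.205).

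**Figure D3:**
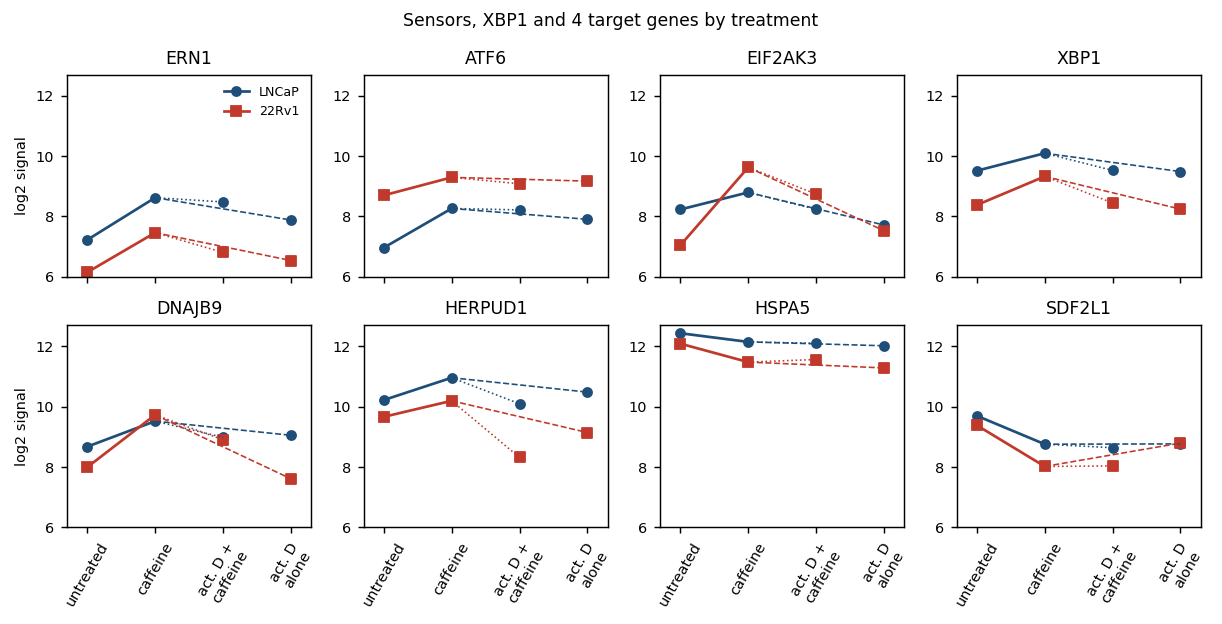
Log2 signal of ERN1, ATF6, EIF2AK3, XBP1, DNAJB9, HERPUD1, HSPA5 and SDF2L1 on each array, LNCaP as circles and 22Rv1 as squares. Solid lines join untreated to caffeine, and dotted and dashed lines join the caffeine array to the actinomycin D arrays with and without caffeine. XBP1 peaks on the caffeine array in each line at 10.09 and 9.33, and HSPA5 and SDF2L1 are highest untreated.

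Most chaperones lay near or below their untreated level. Of 9 chaperones and co-chaperones, 3 had a positive and 6 a negative accumulation estimate, and the median difference was 0.03 for LNCaP and -0.29 for 22Rv1. HSPA5, also called BiP, the main chaperone of the compartment and the usual readout of the response, had signals of 12.44, 12.15, 12.10 and 12.02 in LNCaP and of 12.09, 11.48, 11.57 and 11.29 in 22Rv1. The untreated array was the highest in each line, and accumulation was -0.29 and -0.61 (-0.45, SE 0.20, limma adjusted p = 0.322). A second, dimmer HSPA5 probe set gave -0.05 and -2.73.

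DNAJB9, a co-chaperone of HSPA5 also called ERdj4, was the exception among the chaperones. It had signals of 8.68, 9.52, 8.99 and 9.05 in LNCaP and of 7.999, 9.73, 8.91 and 7.62 in 22Rv1, with the caffeine array highest in each line. Accumulation was 0.84 and 1.73 (1.29, SE 0.41, limma adjusted p = 0.201). All 3 of its probe sets had the same direction, with 0.81 and 1.52 for the second and 1.31 and 1.34 for the third.

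SDF2L1, which keeps HSPA5 clients from aggregating together with DNAJB11, stood at the other end. It had signals of 9.70, 8.76, 8.64 and 8.77 in LNCaP and of 9.38, 8.02, 8.04 and 8.80 in 22Rv1, with the untreated array above all others in each line. Accumulation was -0.94 and -1.36 (-1.15, SE 0.25, limma adjusted p = 0.117). The other 6 members of the group, CRELD2, DNAJB11, DNAJC3, HSP90B1, HYOU1 and MANF, lay between -0.52 and 0.18.

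The lectin chaperones CALR and CANX, which hold glycoproteins until they are folded, gave -0.04 and 0.40 in LNCaP and -0.59 and -0.20 in 22Rv1. Among the 6 disulfide isomerases and oxidases, 5 had a negative accumulation estimate. The lowest value was that of the isomerase PDIA4 in 22Rv1, at -0.84, with -0.27 in LNCaP. ERO1B, an oxidase that recharges the isomerases, was the only one higher in both lines, by 0.26 and 0.67.

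In endoplasmic reticulum-associated degradation, 6 of the 7 measured members had a positive accumulation estimate, and the median difference was 0.23 for LNCaP and 0.53 for 22Rv1. DERL2, a derlin of the export channel, had signals of 9.58, 10.12, 10.10 and 10.10 in LNCaP and of 8.60, 9.94, 9.93 and 9.83 in 22Rv1. Only the untreated arrays stood apart, and accumulation was 0.55 and 1.33 (0.94, SE 0.27, limma adjusted p = 0.171). A dimmer DERL2 probe set gave 0.74 and -0.47. HERPUD1, which assembles the export complex, gave 0.74 and 0.53 (0.63, SE 0.33, limma adjusted p = 0.391), from signals of 10.22, 10.96, 10.10 and 10.49 in LNCaP and of 9.67, 10.20, 8.32 and 9.15 in 22Rv1. The mannosidase-like EDEM1 gave 0.23 and 0.69. DERL3 differed in sign between the lines, at -0.21 and 1.07, and OS9 and SEL1L stayed within 0.22 of 0.

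All 4 members of the translocation and signal peptide group, SEC61A1, SEC61B, SPCS3 and SSR1, were lower with caffeine in both lines, with medians of -0.42 and -0.24, and none passed the test. SPCS3, a subunit of the signal peptidase, gave -0.59 and -0.66 (-0.62, SE 0.31, limma adjusted p = 0.360). WFS1, a membrane protein of calcium handling, gave -1.56 and -0.43 (-0.995, SE 0.35, limma adjusted p = 0.236), though its 22Rv1 signals were 4.23 and 3.80, at the floor of detection. SEC24D, which packs cargo into vesicles, gave 0.18 and -0.03.

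Members with an exact match to a stress element lay on both sides of 0. Of the 10 members with an ERSE or ERSE-II match, 3 were higher with caffeine in both lines, namely XBP1, ERO1B and HERPUD1. Another 4 were lower in both lines, namely CALR, CRELD2, HSPA5 and SDF2L1, and the remaining 3 differed in sign between the lines. ERN1, ATF6, EIF2AK3 and DNAJB9, which had higher signals with caffeine, held none of the 4 motifs searched in these windows.

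Scaling every array to the spiked-in poly-A controls in place of the authors' normalization adds 0.21 to accumulation in LNCaP and 0.26 in 22Rv1. By the probe sets used, ERN1, ATF6, EIF2AK3, XBP1, DNAJB9, DERL2 and HERPUD1 stay positive in both lines on that scale. SDF2L1, SPCS3, HSPA5 and WFS1 stay negative. Members closer to 0 from below turn positive, as CALR in LNCaP does. So do the dimmer probe sets of ATF6 and HSPA5 that gave -0.13 and -0.05 in LNCaP.

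The fate of these transcripts once transcription was blocked was read from actinomycin D alone against caffeine, called decay here. This comparison shares the caffeine arrays with accumulation, and it also withdraws caffeine. All 5 sensors and transcription factors had a negative estimate, with a median of -0.83, although CREB3L2 was higher in 22Rv1 by 0.31. None of the 35 members passed the test, against 2.56% of all genes. At an unadjusted p under 0.05, 4 members (11.4%) were lower against 14.2% of all genes, namely EIF2AK3, ERN1, XBP1 and DNAJB9, and 1 (2.86%), the isomerase PDIA3, was higher against 6.56%. These counts depend on the probe set used. Other tested probe sets of ERO1A, SPCS3, SSR1, CANX, SEC61A1, OS9 and SEL1L were higher at that p, by 0.56 for OS9 to 1.49 for SPCS3. Dimmer probe sets of DNAJB9 were lower, at -1.37 and -1.03. Over all members the median was -0.09 in LNCaP and 0.22 in 22Rv1, beside -0.09 and 0.03 over all detected genes.

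EIF2AK3 was lower with actinomycin D alone by more than 1 in each line, at -1.08 and -2.10 (-1.59, SE 0.48, limma adjusted p = 0.145). DNAJB9 gave -0.47 and -2.12 (-1.29, SE 0.41, limma adjusted p = 0.154), and its 22Rv1 array of actinomycin D alone was its lowest of all 8. XBP1 gave -0.61 and -1.08 (-0.85, SE 0.21, limma adjusted p = 0.0993), and ERN1 gave -0.74 and -0.92 (-0.83, SE 0.23, limma adjusted p = 0.118). HSPA5 gave -0.13 and -0.19 (-0.16, SE 0.20), and PDIA3 gave 0.95 and 0.52 (0.73, SE 0.24, limma adjusted p = 0.164). In LNCaP, 1 member, the oxidase ERO1A, was higher by at least 1 (4.67% of all genes) and 2 members, EIF2AK3 and CREB3L2, were lower (11.9%). In 22Rv1 no member was higher by at least 1 (3.16%) and 4 were lower, namely EIF2AK3, DNAJB9, XBP1 and HERPUD1 (10.5%).

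These values are relative to the bulk of transcripts on each array. On the poly-A scale every decay difference is lower by 1.53 in LNCaP and by 1.18 in 22Rv1, so that PDIA3 and the other members above 0 by less than this turn negative, and 32 of the 35 members (91.4%) then pass the test as lower, close to the 88.3% of all genes that do. The order of the members within a line does not depend on this choice, since the same amount is taken from every gene.

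Where caffeine was kept through the actinomycin D step, the difference from the caffeine array was -0.56 and -0.89 for EIF2AK3 and -0.54 and -0.83 for DNAJB9. HERPUD1 gave -0.86 and -1.88 (-1.37, SE 0.33, limma adjusted p = 0.235). XBP1 gave -0.57 and -0.88 (-0.73, SE 0.21, limma adjusted p = 0.289). None of the 35 members passed the test, as did 0% of all genes. HERPUD1 and XBP1 were the 2 members (5.71%) lower at an unadjusted p under 0.05, against 7.79% of all genes, and none was higher, against 3.99%. Other tested probe sets of ERO1A, OS9, PDIA3, SPCS3 and SSR1 were higher at that p, by 0.48 for OS9 to 0.80 for PDIA3. On the poly-A scale, which lowers these differences by 1.14 in LNCaP and 0.77 in 22Rv1, 19 of the 35 (54.3%) passed as lower, close to the 56.5% of all genes that did.

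The study's second step compared actinomycin D with caffeine against actinomycin D alone, a difference called degradation, in which a transcript that caffeine protects from decay has the higher signal. No member passed the test in limma, as did 0% of all genes, and none had an unadjusted p under 0.05 in either direction, against 5.37% of all genes higher and 1.38% lower. The members' median was 0.01 in LNCaP and -0.07 in 22Rv1, beside 0.10 and -0.02 over all detected genes. By the probe sets used, all 5 sensors and transcription factors had a positive estimate, with a median of 0.43. ATF6 and CREB3L2 differed in sign between the lines. Other tested probe sets of these genes had negative estimates, with -0.22 and -0.85 for ATF6, -0.34 for CREB3L2 and -0.01 for ERN1. EIF2AK3 gave 0.52 and 1.21 (0.87, SE 0.48, limma adjusted p = 0.742). DNAJB9 gave -0.07 and 1.29, and CREB3L2 gave 1.20 and -0.29, so that each passed 1 in a single line. HERPUD1 was lower where caffeine was present, at -0.39 and -0.83 (-0.61, SE 0.33, limma adjusted p = 0.736). ERN1 in LNCaP gave 0.60 by the probe set used and -0.84 by another. The LNCaP values here rest on the array of actinomycin D with caffeine, whose 18S rRNA mean was 11.7. The poly-A scale adds 0.39 in LNCaP and 0.41 in 22Rv1, which turns HERPUD1 in LNCaP to about 0.

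Many members differed between the lines whatever the treatment, among them WFS1, ERN1 and XBP1 with more signal in LNCaP and SPCS3, CRELD2 and OS9 with more in 22Rv1. Over the 4 treatments, 8 members were higher in LNCaP (22.9%, against 28.5% of all genes) and 9 were higher in 22Rv1 (25.7%, against 26.8% of all genes lower in LNCaP), at a limma adjusted p under 0.05. The share of members that differed was thus close to that of all genes. Each of the 17 had the same sign in 4 of 4 treatments, which are the same arrays that gave the calls. Some members that were not called, such as HYOU1 and EDEM1, did so too. The poly-A scale adds 0.45 to every difference of LNCaP from 22Rv1, and the balance then shifts to 18 members higher in LNCaP (51.4%, against 43.7% of all genes) and 6 lower (17.1%, against 15.3%). Of the 4 fibroblast genes, LUM and DCN had ranges that did not overlap between the lines and COL1A1 and COL3A1 had ranges that did, and their part in these differences was not tested.

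**Figure D4:**
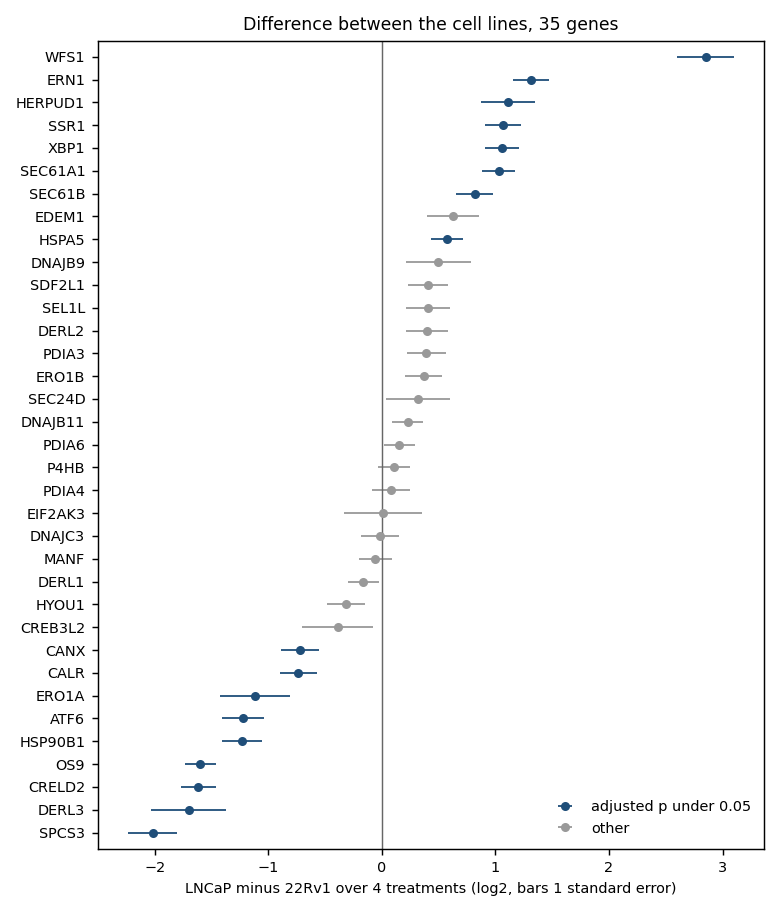
Difference of LNCaP from 22Rv1 over the 4 treatments (log2, limma estimate, bars 1 SE) for the 35 members in order of size. Filled dark points have an adjusted p under 0.05. WFS1 at 2.85 and SPCS3 at -2.02 mark the ends.

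Among the sensors, ERN1 was higher in LNCaP by 1.31 (SE 0.16, limma adjusted p = 0.0012) and XBP1 by 1.06 (SE 0.15, limma adjusted p = 0.0021). The LNCaP and 22Rv1 arrays of XBP1 did not overlap. ATF6 was higher in 22Rv1, with an estimate of -1.22 (SE 0.19, limma adjusted p = 0.0028), and its arrays did not overlap either. Of the other ATF6 probe sets, one had the same sign, -1.77 (limma adjusted p = 0.0082), and one the opposite sign, 0.69 (limma adjusted p = 0.0425). A dimmer probe set of ERN1 gave 0.27 (limma adjusted p = 0.549). EIF2AK3 gave 0.01 (SE 0.34).

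Among the chaperones, HSPA5 was higher in LNCaP by 0.57 (SE 0.14, limma adjusted p = 0.0177). This call was lost without the caffeine array of either line (0.54, adjusted p = 0.0728) and without the array of actinomycin D alone of either line (0.52, adjusted p = 0.0703), and the dimmer probe set gave -0.74. Over its 17 alternatives the adjusted p ran from 0.00216 to 0.792. CRELD2, a disulfide isomerase-like protein of the compartment, had signals of 10.36, 10.07, 10.17 and 10.08 in LNCaP and of 11.96, 11.44, 11.70 and 12.03 in 22Rv1. It was higher in 22Rv1 on every pair of arrays, with an estimate of -1.61 (SE 0.16, limma adjusted p = 0.000533). HSP90B1, also called GRP94, had signals of 10.06, 10.09, 9.83 and 9.99 in LNCaP and of 11.11, 10.94, 11.34 and 11.49 in 22Rv1 (-1.23, SE 0.17, limma adjusted p = 0.0021). It was read here from a probe set that may cross-hybridize, since the brighter ones are shared with a microRNA gene, and a further probe set gave -0.65 (limma adjusted p = 0.276). CALR, OS9, PDIA6 and SPCS3 were also read from probe sets that may cross-hybridize.

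The lectin chaperones were both higher in 22Rv1. CALR had signals of 11.19, 11.15, 11.29 and 10.78 in LNCaP and of 12.30, 11.71, 11.79 and 11.56 in 22Rv1 (-0.74, SE 0.16, limma adjusted p = 0.0111). CANX had signals of 11.40, 11.80, 11.47 and 11.78 in LNCaP and of 12.45, 12.25, 12.32 and 12.31 in 22Rv1 (-0.72, SE 0.16, limma adjusted p = 0.0124). Neither call held on the poly-A scale, with -0.29 (adjusted p = 0.242) for CALR and -0.27 (adjusted p = 0.287) for CANX, nor without the filter on the mean, and over all alternatives the adjusted p reached 0.323 and 0.808. All 3 CALR probe sets and 3 of 4 CANX probe sets had the same sign, and the fourth of CANX gave 0.06.

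ERO1A, the main oxidase of protein disulfide isomerase, had signals of 6.85, 7.15, 8.14 and 8.33 in LNCaP and of 8.95, 8.52, 8.48 and 8.99 in 22Rv1. LNCaP lay below 22Rv1 on all arrays and closest on the actinomycin D ones (-1.12, SE 0.31, limma adjusted p = 0.0247). The call was lost without the untreated array of either line (-0.79, adjusted p = 0.0522) or the caffeine array of either line (-1.03, adjusted p = 0.0826), and 2 further probe sets gave 0.04 and 0.83 (adjusted p = 0.00694 for the latter, in a range of 0.00694 to 0.851 over 18 alternatives). The other 5 disulfide isomerases and oxidases had positive estimates in LNCaP by the probe sets used, and none of these passed the test. Dimmer probe sets of PDIA4, PDIA6 and PDIA3 passed as higher in LNCaP, at 0.94, 0.64 and 0.48 (limma adjusted p = 0.0044, 0.0127 and 0.0418). Another PDIA3 probe set gave -0.70 and a dimmer one of P4HB gave -0.28, and neither passed.

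In the degradation group, HERPUD1 was higher in LNCaP by 1.11 (SE 0.24, limma adjusted p = 0.0099). This call was lost without the filter on the mean, as was that of DERL3. Over the 16 alternatives of HERPUD1 the limma adjusted p reached 0.0945. OS9, a lectin that delivers misfolded glycoproteins, had signals of 9.51, 9.57, 9.48 and 9.85 in LNCaP and of 11.15, 11.17, 11.19 and 11.29 in 22Rv1. The treatments left both rows flat and the lines far apart (-1.60, SE 0.14, limma adjusted p = 0.000338), and a second probe set gave -1.59. DERL3, a derlin of secretory cells, had signals of 5.44, 5.23, 5.22 and 4.59 in LNCaP and of 5.93, 7.001, 7.36 and 7.001 in 22Rv1 (-1.70, SE 0.33, limma adjusted p = 0.0069), and the other probe sets gave -1.62 (limma adjusted p = 0.0034) and 0.01.

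The translocation group split. SEC61A1 and SEC61B, subunits of the channel through which new proteins enter, were higher in LNCaP. SEC61A1 had signals of 11.08, 10.63, 10.76 and 10.88 in LNCaP and of 9.82, 9.69, 9.80 and 9.94 in 22Rv1 (1.03, SE 0.14, limma adjusted p = 0.0019). SEC61B had signals of 12.37, 12.00, 12.08 and 11.83 in LNCaP and of 11.27, 11.09, 11.30 and 11.37 in 22Rv1 (0.82, SE 0.16, limma adjusted p = 0.0073). The arrays of the lines did not overlap for either subunit.

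SSR1, a subunit of the translocon-associated protein complex, had signals of 12.12, 11.72, 11.50 and 11.75 in LNCaP and of 10.79, 10.49, 10.75 and 10.79 in 22Rv1 (1.07, SE 0.16, limma adjusted p = 0.0025). Of its 6 tested probe sets, 5 passed as higher in LNCaP and 1 passed with the opposite sign, -1.36 (limma adjusted p = 0.00328). SPCS3 had signals of 9.80, 9.21, 8.63 and 8.66 in LNCaP and of 11.42, 10.77, 11.07 and 11.10 in 22Rv1 (-2.02, SE 0.22, limma adjusted p = 0.000783), and the other SPCS3 probe sets gave -0.66 (limma adjusted p = 0.0377) and -0.04. WFS1 had signals of 7.50, 5.94, 6.82 and 6.83 in LNCaP and of 4.23, 3.80, 3.39 and 4.26 in 22Rv1 (2.85, SE 0.25, limma adjusted p = 0.000379), the widest gap among the members, with 22Rv1 at the floor of detection.

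The wider pathway was read from lists of genes that are no members. Of 17 other regulators of the response, 15 were tested, and 1 passed as higher in accumulation and 3 as lower in decay. Over all genes, 0.0277% passed in accumulation and 2.56% in decay, in either direction. PPP1R15A, also called GADD34, which reverses the phosphorylation of eIF2 alpha, rose with caffeine by 2.84 in LNCaP and 3.10 in 22Rv1 (limma adjusted p = 0.0409) and fell with actinomycin D alone (-3.003 and -3.46, limma adjusted p = 0.0257). ATF4, the transcription factor whose mRNA is translated when PERK is active, was higher with caffeine by 1.82 and 1.67 (limma adjusted p = 0.0691). The ATF6 protease MBTPS2 gave -0.34 and -0.40, and the ATF6-related CREB3L4 gave -0.003 and -0.62. The other genes called lower in decay were DDIT3, also called CHOP (-3.04 and -3.99, limma adjusted p = 0.0264), and CEBPB (-1.55 and -1.77, limma adjusted p = 0.0309), both named after their values were seen. DDIT3 was also higher with caffeine by 1.35 and 2.72 (limma adjusted p = 0.0766), and with actinomycin D and caffeine against actinomycin D alone by 3.20 and 3.22 (limma adjusted p = 0.163).

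No listed gene of the effector machinery outside the members passed the test with caffeine, where 0.0277% of all genes did. In accumulation by limma, none of 28 other folding and quality control genes or 18 other degradation genes passed. Nor did any of 25 other translocation and glycosylation genes or 18 genes of COPII vesicles and the early Golgi. At an unadjusted p under 0.05, 3, 1, 0 and 2 of them were higher, against 10.2% of all genes. In the same order, 1, 1, 0 and 2 were lower, against 7.58%. Of the 25 translocation and glycosylation genes, 20 had a negative accumulation estimate, with a median of -0.09. In decay 1 COPII gene passed as lower, where 2.56% of all genes passed in either direction.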

How the data were processed

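Total RNA of 8 plates was hybridized to Affymetrix U133 Plus 2.0 arrays, 1 per line and treatment. The authors processed the arrays together by gcRMA with quantile normalization, and the deposited values are log2 signals per probe set. Quantile normalization gives all arrays 1 distribution, so a change shared by most transcripts is not visible. Probe sets annotated to several genes were left out.

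Differences were tested in limma 3.58.1 (R 4.3.3) with cell line and treatment as additive terms, 3 residual degrees of freedom, on the 21453 probe sets averaging 4 or more, with Benjamini-Hochberg adjustment over all of them. Gene shares are over 10842 genes by their brightest probe set. The study's methods name no test. A line by treatment term could not be fitted. Detection in a comparison required a signal of 4 or more on either array. The fit was tested on simulated data.

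Named with all array values were members called in any of 5 comparisons, those differing by at least 1 in both lines or 2 in one, the 3 highest and 3 lowest in accumulation (ranked by the line nearer to 0, not by the estimate) and between lines (by the estimate), HSPA5, XBP1, ATF6, ERN1 and EIF2AK3. From the other regulators, the 2 highest and 2 lowest in accumulation by the same ranking were named. DERL2 and PDIA3 were chosen after their values were seen. The members and lists were chosen with earlier results of these data known. Alternatives were poly-A and median scaling, other filters, floors and probe sets, and leaving out each array.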

Additional observations from a re-analysis of the deposited data

Results flagged for a closer look

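SEC24D, which helps load cargo into transport vesicles, moved in opposite directions in the lines when actinomycin D alone was set against caffeine, with a difference of -0.93 in LNCaP and of 0.65 in 22Rv1. This contrast between lines was not tested, since each value rests on 2 arrays.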

How the results depend on the processing

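With the poly-A controls as the scale, which shifts all genes alike within an array, the members' median accumulation in 22Rv1 became 0.090, their median degradation 0.40 in LNCaP and 0.33 in 22Rv1, their median decay -1.62 and -0.96, and their median loss with caffeine kept -1.17 and -0.69. It turned the sign of all 4 of the 22Rv1 medians. On it 1 member, ERN1, was called in accumulation (1.59, adjusted p = 0.0483), 32 in decay (against 88.3% of all genes) and 19 in loss with caffeine kept (against 56.5%), and between the lines 18 were higher and 6 lower in LNCaP. A mean of at least 6 also gave 1 call in accumulation, ERN1. Between the lines, other probe sets reversed ATF6 (0.69), CANX (0.060), DERL3 (0.010), ERO1A (0.035 and 0.83), HSPA5 (-0.74) and SSR1 (-1.36), and the mean of all probe sets reversed HSPA5 (-0.084). Without a filter on the mean, CALR, CANX, DERL3, ERO1A and HERPUD1 lost their calls. Of 481 alternatives for 27 single-gene results, 447 kept both direction and side of the threshold, 4 gained a call, 22 lost it and 8 reversed. These alternatives are not independent. Leaving out the array of a treatment gives the same difference between the lines whichever line it is taken from. The accumulation and decay results had no call to lose. Probe sets of a gene also differed in sign for SEL1L in LNCaP decay (-0.59 and 1.30), SPCS3 in LNCaP decay (-0.55 and 1.41) and in LNCaP loss with caffeine kept (-0.57 and 0.57), and SSR1 in LNCaP loss with caffeine kept (-1.01 and 0.52). The cell line is the block of every treatment comparison. No member was called in any of them in the main fit, and none was without this block. Signal near the floor limits WFS1 in 22Rv1. The LNCaP values of degradation and of loss with caffeine kept share the array with the 18S rRNA mean of 11.7. Whether this high 18S signal affected them was not tested.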
